A study of Mus musculus with 8 samples.

Results

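Meiotic chromosomes are held together by proteins that most dividing cells do not make, and 10 mouse genes for such proteins were followed here in embryonic stem cells. The genes were taken by name: Sycp1, Sycp2, Sycp3 and Syce1 for the synaptonemal complex, Hormad1 for the chromosome axis, Rec8, Smc1b and Stag3 for meiotic cohesin, and Stra8 and Meioc for the entry into meiosis. Each symbol was matched to 1 Ensembl gene, and these 10 genes were read out of 54232 in the count tables. RNA-seq of mRNA was done on 8 libraries of E14 mouse embryonic stem cells, a line whose strain the labels spell 12910la, grown with serum and LIF. The Ssrp1 experiment set 2 libraries of Ssrp1 knockout cells, made with Cas9 and a guide RNA, against 2 libraries of control cells, described as wild type. The Usp7 experiment set 2 libraries of cells carrying an shRNA plasmid against Usp7 (Usp7 knockdown) against 2 libraries of its own control cells. The knockdown protocol gives 1000 ng of plasmid, with selection in puromycin at 1 ug/ml begun after 24 h and kept up over 3 days. The guide site, the number of knockout clones and whether the Usp7 controls received an empty plasmid are not stated in the labels. Ssrp1 is a subunit of the histone chaperone FACT and Usp7 is a deubiquitinase, and the question put by the design was how the transcriptome changed after loss of either.

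In germ cells, the axis of each meiotic chromosome is built on cohesin that carries the meiotic subunits Rec8, Smc1b and Stag3 in place of mitotic paralogues. Sycp2 and Sycp3 coat that axis as the lateral elements, Hormad1 marks axes that are not yet synapsed, and Sycp1 bridges paired axes with central element proteins such as Syce1. Stra8 is a retinoic acid responsive transcription factor that starts the meiotic programme, and Meioc keeps cells in it through control of mitotic transcripts. In embryonic stem cells and somatic cells many of these genes are kept low by DNA methylation and by repressors such as PRC1.6, a Polycomb complex whose subunits E2f6 and Mga with Max recognise E2F-type sites and E-boxes.

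Promoters of the 10 genes were read for short patterns. The motifs shown were picked from 7 patterns after the sequences had been read, so the shares given with them are a description. The stretches below are the bases just upstream of the annotated start of 5 of the genes, taken from RefSeq (GRCm38.p6), 5′ to 3′ on the strand of the gene and stopping before any annotated exon of the gene. Capitals mark GCGGGAA, an E2F-type motif also searched on the other strand, and CACGTG, an E-box that reads the same on both. Hormad1 and Sycp3 are shown because they hold both motifs, Sycp1 for an E-box alone and Meioc for an E2F-type motif alone. Sycp2, which holds neither, is shown for having the largest change of the 10 genes. The 5 stretches lie at chr3:95559427-95559676 on the plus strand (Hormad1), chr10:88459337-88459568 on the plus strand (Sycp3), chr3:102936101-102936350 on the minus strand (Sycp1), chr11:102665335-102665584 on the plus strand (Meioc) and chr2:178407686-178407908 on the minus strand (Sycp2).
Hormad1: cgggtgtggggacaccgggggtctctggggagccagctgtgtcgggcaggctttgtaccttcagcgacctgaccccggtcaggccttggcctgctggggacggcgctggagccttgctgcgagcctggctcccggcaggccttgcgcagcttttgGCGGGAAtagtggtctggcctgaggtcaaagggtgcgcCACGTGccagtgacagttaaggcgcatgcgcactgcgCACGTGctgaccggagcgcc
Sycp3: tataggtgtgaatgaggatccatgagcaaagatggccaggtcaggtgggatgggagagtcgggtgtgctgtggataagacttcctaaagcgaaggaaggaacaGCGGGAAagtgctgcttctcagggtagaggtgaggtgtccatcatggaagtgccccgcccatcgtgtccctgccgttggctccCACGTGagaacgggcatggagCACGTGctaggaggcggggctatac
Sycp1: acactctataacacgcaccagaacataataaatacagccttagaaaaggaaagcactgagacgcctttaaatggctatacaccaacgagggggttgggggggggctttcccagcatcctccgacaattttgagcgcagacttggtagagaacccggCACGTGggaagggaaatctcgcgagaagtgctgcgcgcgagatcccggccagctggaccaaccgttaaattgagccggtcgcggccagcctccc
Meioc: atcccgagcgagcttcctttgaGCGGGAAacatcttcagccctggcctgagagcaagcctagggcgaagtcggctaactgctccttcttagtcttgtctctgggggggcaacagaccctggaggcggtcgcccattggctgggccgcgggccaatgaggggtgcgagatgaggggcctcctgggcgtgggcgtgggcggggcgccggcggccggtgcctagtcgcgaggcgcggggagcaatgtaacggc
Sycp2: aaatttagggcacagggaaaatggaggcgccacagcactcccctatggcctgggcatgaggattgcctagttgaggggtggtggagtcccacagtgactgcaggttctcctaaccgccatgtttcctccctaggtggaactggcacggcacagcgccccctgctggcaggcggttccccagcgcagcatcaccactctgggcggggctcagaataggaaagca

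Over windows from 250 bases before to 50 after the start, both strands read, GCGGGAA was present in 5 of the 10 genes (Sycp3, Hormad1, Smc1b, Stag3 and Meioc). The same motif was present in 5.29% of all 27025 genes in the promoter table. CACGTG was present in 4 of the 10 (Sycp1, Sycp3, Hormad1 and Stag3), against 8.09% of all genes. In Hormad1 the E2F-type motif began at position -95 from the start and the E-boxes at -57 and -20, and in Sycp3 the motifs began at -147 and at -64 and -43. Of the other patterns looked at, TCCCGC, which on the other strand is part of GCGGGAA, was in 7 of the 10 genes (22.05% of all genes), GGGCGG in 4 (38.2%) and TGACG in 2 (23.05%). TGACGT and TGACGTCA were in none of these windows (8.37% and 2.03% of all genes). A match is a run of letters and not a binding site, and a link between these motifs and the changes was not tested. Stra8, the gene with the highest level per length in the knockout, had neither GCGGGAA nor CACGTG in its window.

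The 10 genes lie apart in the genome (mm10, GENCODE vM21), all protein coding: Hormad1 (ENSMUSG00000028109) spans bases 95559677 to 95587671 of chromosome 3 and Sycp1 bases 102818499 to 102936100 of the same chromosome. Sycp2 spans bases 178345293 to 178407685 of chromosome 2, Syce1 bases 140777229 to 140787852 of chromosome 7, Stra8 bases 34920163 to 34939344 of chromosome 6 and Meioc bases 102663716 to 102682237 of chromosome 11. The RefSeq start used for Meioc lies inside that last span. Among the cohesin genes, Rec8 spans bases 55618037 to 55625395 of chromosome 14, Smc1b bases 85064689 to 85131964 of chromosome 15 and Stag3 bases 138280240 to 138312393 of chromosome 5. Sycp3, at bases 88459569 to 88473236 of chromosome 10, was the only one to share exon bases with another gene: 660 of its 1264 exon bases overlap Chpt1 on the opposite strand. The strand mode of the counting is not given in the sources used here, so reads of Sycp3 and Chpt1 cannot be told apart. Chpt1 itself had 17.1 and 17.0 CPM in Ssrp1 KO cells against 7.21 and 8.03 CPM in controls.

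Totals were 15879056 to 18361130 counts per library. The Ssrp1 transcript had 398.9 CPM (library-size normalised counts) in knockout replicate 1 and 119.5 CPM in knockout replicate 2, against 422.4 and 459.2 CPM in controls, and did not pass the test (log2 change -0.77, SE 0.45, adjusted p = 0.41, edgeR). Knockout replicate 1 thus kept the transcript near the control level. The labels do not say how far this culture was edited, and this was not tested. The calls of the 10 genes and the estimates of Hormad1 and Sycp3 are given without it as well. Medians and counts of libraries that do not overlap are given only with it. Usp7 had 116.6 and 128.2 CPM in Usp7 knockdown cells against 385.1 and 380.1 CPM in controls, a fall by 1.64 on the log2 scale (SE 0.19, adjusted p = 0.0012, edgeR with Benjamini-Hochberg adjustment). The libraries of the Ssrp1 experiment also stood apart by base composition. Genes with under 40% GC in their longest transcript deviated from their own mean over the 4 libraries by a median of 0.59 (log2) in knockout replicate 1 and 0.12 in knockout replicate 2, against -0.51 and -0.23 in control replicates 1 and 2. In the Usp7 experiment the same medians were 0.05 and 0.02 in knockdown libraries, against -0.12 and 0.03 in controls. Of the 10 genes, 6 have under 40% GC (Sycp3 34.3%, Sycp1 34.6%, Hormad1 35.8%, Sycp2 36.4%, Meioc 38.5% and Smc1b 39.8%), while the median tested gene has 49.9%. Values corrected for GC content and exon length are therefore given beside the Ssrp1 results of the 10 genes. The low-GC medians were above 0 in both knockout libraries and below 0 in both controls. The correction was fitted to each library without regard to its group. It can thus also remove a change that genes of low GC share in the knockout, and a technical trend and such a change cannot be told apart here.

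**Figure D1:**
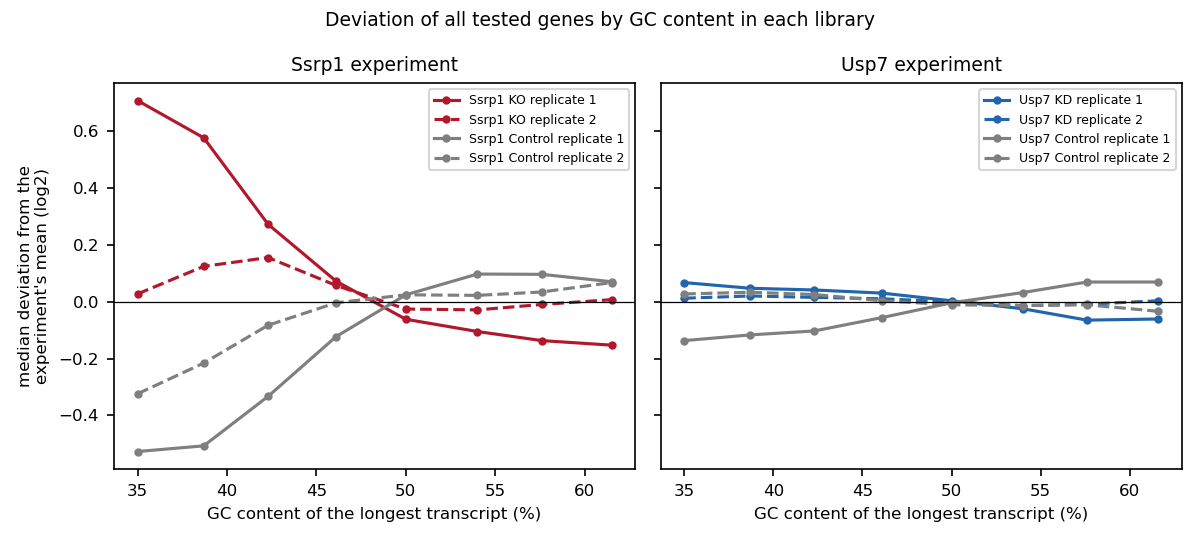
Median deviation (log2 CPM) of genes from their mean over the 4 libraries of an experiment, by GC content of the longest transcript in percent, one line per library; knockout or knockdown libraries are coloured and controls grey. In the Ssrp1 experiment the libraries fan out at low GC, with knockout replicate 1 at 0.59 and control replicate 1 at -0.51 for genes under 40% GC, and in the Usp7 experiment the same medians lie between -0.12 and 0.05.

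In Usp7 knockdown cells, 5 of the 10 genes rose and none fell, at an adjusted p under 0.05 in edgeR's quasi-likelihood test over 15915 genes, of which 2.36% rose. These were the 4 synaptonemal complex genes and Hormad1. The knockdown libraries lay wholly above the controls for 9 of the 10 genes, against 24.6% of all tested genes, and wholly below for none, against 23.4%. The median change of the 10 was 1.04 on the log2 scale, and of all tested genes -0.02. The libraries are of whole cell populations, so a larger share of cells with a transcript and more of it per cell cannot be told apart. The labels do not state separate cultures for the 2 replicates of a group; a p-value here therefore reflects how far these libraries scatter, and that scatter could be purely technical.

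Sycp2, a lateral element protein, was counted 549 and 713 times in Usp7 knockdown libraries and 14 and 44 times in controls. That is 30.4 and 39.1 CPM in knockdown cells against 0.824 and 2.58 CPM in controls, with no overlap, a rise of 4.35 on the log2 scale (20.3-fold, SE 0.40, adjusted p = 0.00038, edgeR). Of the 10 genes, it was the one with the largest estimate in both experiments. Sycp1, the transverse filament of the complex, had 29.1 and 41.6 CPM in knockdown cells against 1.65 and 5.80 CPM in controls. Its 2 controls differed widely from each other, yet both lay far under the knockdown libraries, and the rise was 3.24 (9.47-fold, SE 0.44, adjusted p = 0.0033, edgeR). Syce1, a central element protein, had 57.8 and 60.7 CPM in knockdown cells against 16.9 and 13.5 CPM in controls. The replicates were close in both groups, and the rise was 1.96 (3.89-fold, SE 0.21, adjusted p = 0.00074, edgeR). Sycp3, the partner of Sycp2 in the lateral element, had 17.4 and 18.6 CPM in knockdown cells against 9.47 and 8.15 CPM in controls. Its rise of 1.03 (2.04-fold, SE 0.24, adjusted p = 0.044, edgeR) was the smallest of the 5. Its call was lost in the shared fit of all 8 libraries (adjusted p = 0.56), without the filter on low counts (0.15), and without knockdown replicate 1 (0.19) or 2 (0.65). The call of Sycp1 was lost without the filter (adjusted p = 0.07) and without knockdown replicate 2 (0.061), while those of Sycp2 and Syce1 held in all 11 alternatives. Chpt1, with which Sycp3 shares exon bases, did not pass the test (log2 change -0.25, adjusted p = 0.70).

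Hormad1, the axis protein, had 35.97 and 41.39 CPM in Usp7 knockdown cells against 8.77 and 7.39 CPM in controls. The groups stood well apart, and the rise was 2.26 (4.79-fold, SE 0.23, adjusted p = 0.00053, edgeR); the shared fit of all 8 libraries gave an adjusted p of 0.21. None of the meiotic cohesin genes passed the test in the knockdown, although their estimates were above 0. At an unadjusted p under 0.05, Stag3 alone of these 3 passed, and DESeq2 called none of the 3. With the replicate number as a block, edgeR called Stag3 (0.63, adjusted p = 0.017) and Smc1b (0.75, adjusted p = 0.022) higher, as 1471 of all genes passed. The labels do not say that equal replicate numbers are pairs. Stag3, the cohesin subunit that binds the Rec8 ring, had 258.9 and 275.2 CPM in knockdown cells against 150.2 and 197.1 CPM in controls, without overlap (log2 change 0.62, SE 0.20, adjusted p = 0.14, edgeR). Rec8, the kleisin that closes the ring, had 23.0 and 22.1 CPM in knockdown cells against 18.5 and 16.1 CPM in controls (0.38, SE 0.21, adjusted p = 0.40). Smc1b, the meiotic SMC subunit, had 22.9 and 30.7 CPM in knockdown cells against 9.71 and 24.9 CPM in controls, where 1 control lay between the knockdown libraries (0.63, SE 0.36, adjusted p = 0.42). The entry genes did not pass in edgeR either. Meioc had 49.8 and 69.7 CPM in knockdown cells against 17.5 and 40.2 CPM in controls (1.05, SE 0.33, adjusted p = 0.13), and Stra8 had 8.63 and 6.14 CPM against 4.77 and 5.69 CPM (0.50, SE 0.31, adjusted p = 0.46). DESeq2 called Meioc higher (1.04, adjusted p = 0.042), as did edgeR with the replicate block (1.14, adjusted p = 5.5e-06). Control replicate 2 was the higher control for Sycp1, Sycp2, Smc1b, Stag3, Stra8 and Meioc. Without that library 8 of the 10 genes were called higher, with Meioc, Smc1b and Stag3 added, as 3770 of all genes then passed. Without knockdown replicate 2, 3 of the 10 were called (Sycp2, Syce1 and Hormad1), as 42 of all genes passed.

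**Figure D2:**
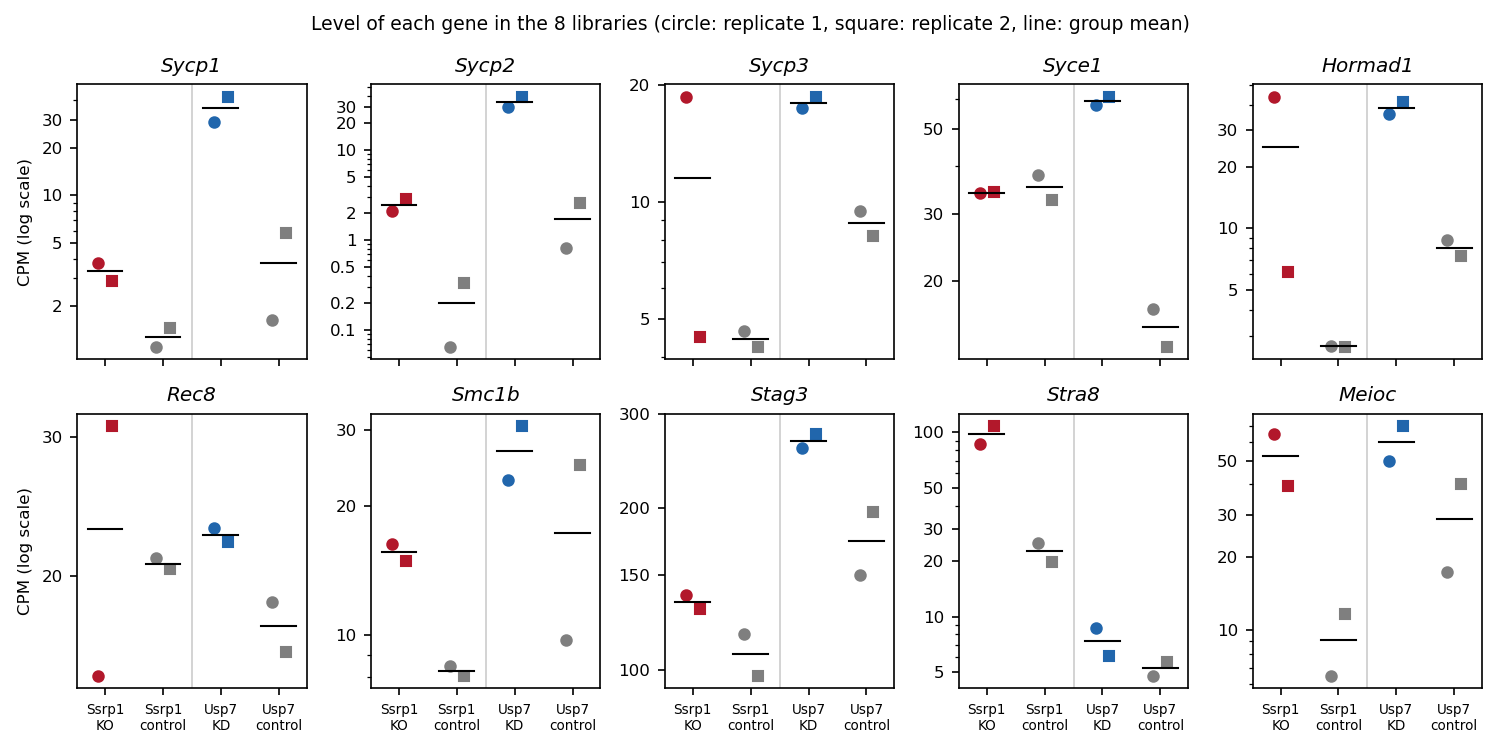
Level of each gene in each of the 8 libraries, in CPM on a log axis with a range of its own in every panel; circles are replicate 1, squares replicate 2, and bars the group mean. Syce1 is highest in Usp7 knockdown cells, at 57.8 and 60.7 CPM; Stra8 is highest in Ssrp1 KO cells; Hormad1 and Sycp3 are high in knockout replicate 1 and low in knockout replicate 2.

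In Ssrp1 knockout cells, 4 of the 10 genes rose and none fell, of 15757 genes tested by edgeR, of which 3.39% rose. These were Stra8, Meioc, Sycp2 and Hormad1. The knockout libraries lay wholly above the controls for 7 of the 10, against 27.3% of all tested genes, and wholly below for none, against 22.7%. The median change of the 10 was 1.36 on the log2 scale, and of all tested genes 0.03. This median and the count of 7 are without the correction for GC content and length. With it, 2 of the 10 remained called, Stra8 and Meioc. The corrected estimates ran from -0.57 (Sycp3) to 2.39 (Sycp2). They were below 0 for Sycp1, Sycp3, Syce1 and Smc1b and above 0 for the rest.

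Stra8, the meiotic inducer, was counted 1319 and 1977 times in Ssrp1 KO libraries and 385 and 352 times in controls. That is 86.6 and 108.3 CPM in knockout cells against 25.2 and 19.9 CPM in controls. Replicates were close in both groups, and the rise was 2.11 (4.32-fold, SE 0.30, adjusted p = 0.008, edgeR). With the GC and length correction it was 2.09 (adjusted p = 0.0094). Meioc had 64.8 and 39.6 CPM in knockout cells against 6.49 and 11.7 CPM in controls, a rise of 2.52 (5.72-fold, SE 0.40, adjusted p = 0.013, edgeR). Its groups did not overlap, and with the correction the rise was 1.37 (adjusted p = 0.042). Both calls were lost without control replicate 1 (adjusted p = 0.055 for Stra8 and 0.13 for Meioc), when 20 of all genes passed and none of the 10 did.

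Sycp2 was counted 32 and 52 times in Ssrp1 KO libraries and 1 and 6 times in controls, or 2.10 and 2.85 CPM against 0.0655 and 0.339 CPM. The rise of 3.53 (11.5-fold, SE 0.83, adjusted p = 0.043, edgeR) rests on few control reads, and it was 2.39 with the GC and length correction (adjusted p = 0.17). The call was also lost without control replicate 1 (adjusted p = 0.60) or 2 (0.10). Hormad1 had 43.6 CPM in knockout replicate 1 and 6.14 CPM in knockout replicate 2, against 2.69 and 2.66 CPM in controls. The groups did not overlap, but the 2 knockout libraries differed far more from each other than the controls did. The rise of 3.21 (9.27-fold, SE 0.75, adjusted p = 0.042, edgeR) was 1.33 with the correction (adjusted p = 0.22) and 1.14 without knockout replicate 1 (adjusted p = 0.22). Without control replicate 1 or 2 the adjusted p was 0.30 and 0.093. Sycp3 followed the same libraries, with 18.6 CPM in knockout replicate 1 and 4.49 CPM in knockout replicate 2, against 4.65 and 4.24 CPM in controls. It did not pass (log2 change 1.37, SE 0.63, adjusted p = 0.28, edgeR), except without knockout replicate 2 (2.06, adjusted p = 0.00038), and its estimate was -0.57 with the correction and -0.05 without knockout replicate 1. Replicate 1 is also the knockout library with the highest median for genes of low GC and with the Ssrp1 transcript near control level, and the part of these in the high values was not tested.

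Sycp1 had 3.74 and 2.90 CPM in Ssrp1 KO cells against 1.11 and 1.47 CPM in controls. Smc1b had 16.3 and 14.9 CPM in knockout cells against 8.45 and 8.03 CPM in controls. In both genes the replicates were close and the groups apart, but neither passed (Sycp1 1.35, SE 0.61, adjusted p = 0.27; Smc1b 0.92, SE 0.39, adjusted p = 0.24, edgeR), and with the correction the estimates were -0.15 and -0.08. Stag3 had 138.1 and 129.7 CPM in knockout cells against 116.6 and 97.4 CPM in controls (0.32, SE 0.26, adjusted p = 0.57). Syce1 had 34.1 and 34.2 CPM in knockout cells against 38.0 and 32.6 CPM in controls, where the knockout libraries lay between the controls (-0.05, SE 0.29, adjusted p = 0.96). Rec8 had 15.0 and 31.0 CPM in knockout cells against 21.1 and 20.4 CPM in controls, with a knockout library on each side of the controls (0.15, SE 0.39, adjusted p = 0.89). With the correction the estimates were 0.30 for Stag3, -0.16 for Syce1 and 0.27 for Rec8. Without knockout replicate 1, 3 of the 10 were called (Sycp2, Stra8 and Meioc), as 1512 of all genes passed, and without control replicate 2, 2 were called (Stra8 and Meioc).

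**Figure D3:**
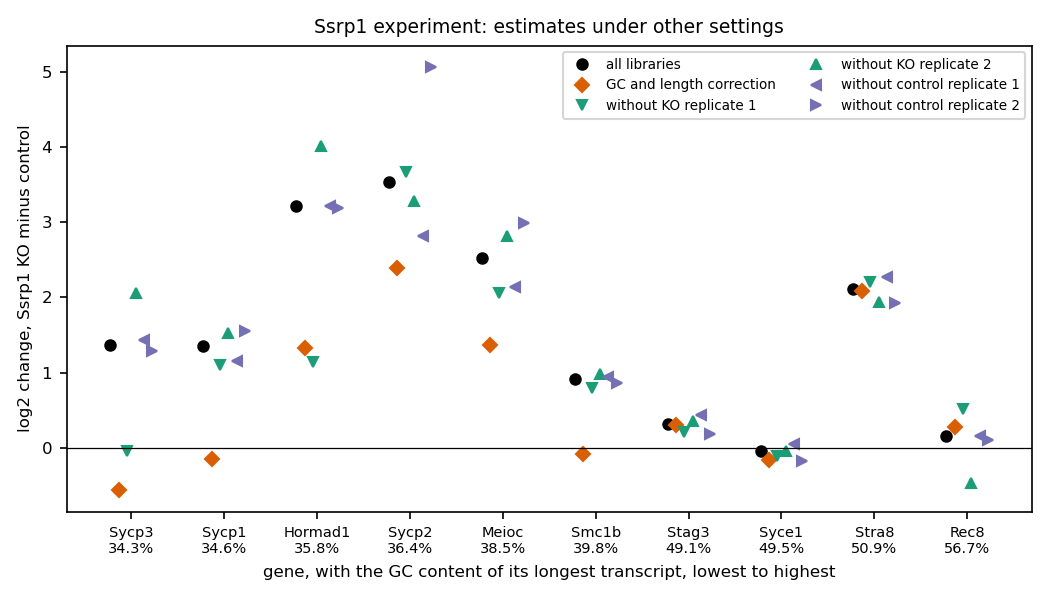
Log2 change of each gene in Ssrp1 KO cells relative to controls with all libraries, with the GC and length correction and with each library left out, the genes ordered by GC content from low to high. Stra8 stays between 1.93 and 2.27, while Hormad1 spans 1.14 to 4.02 and Sycp3 lies below 0 without knockout replicate 1 and after correction for GC and length.

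Between the experiments, the calls overlapped in 2 genes, Sycp2 and Hormad1, which are 2 of the 4 called in the knockout and 2 of the 5 called in the knockdown. The share of all genes called in both experiments was not computed, so this overlap is a description. The knockout change minus the knockdown change was tested in 1 fit over all 8 libraries, in which 0.393% of 17052 genes were called lower and 0.61% higher. Syce1 was the only one of the 10 called, at -2.06 (SE 0.33, adjusted p = 0.02, edgeR). The central element gene rose in Usp7 knockdown cells and did not pass the test in Ssrp1 KO cells. This estimate stayed between -2.26 and -1.92 in all alternatives. The adjusted p ranged up to 0.17, and the call was lost without control replicate 1 of the Ssrp1 experiment or without any 1 of the 4 Usp7 libraries. Stra8 had a difference of the other sign, 1.56 (SE 0.38, adjusted p = 0.085), and so had Meioc (1.42, SE 0.57, adjusted p = 0.27), and neither passed in edgeR. Sycp1 had a difference of -1.95 (SE 0.72, adjusted p = 0.23). Other fits called more of these differences: Stra8 with DESeq2 (adjusted p = 0.017), without the filter on low counts (0.016) and without knockout replicate 1 (0.049), and Meioc (0.029) and Sycp1 (0.032) without the filter. Hormad1 was called without knockout replicate 2 (1.69, adjusted p = 0.02). Sycp2 (-0.87, SE 0.97) and Hormad1 (0.90, SE 0.90) had standard errors about as large as their differences, so these data do not show whether the 2 changes are alike.

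**Figure D4:**
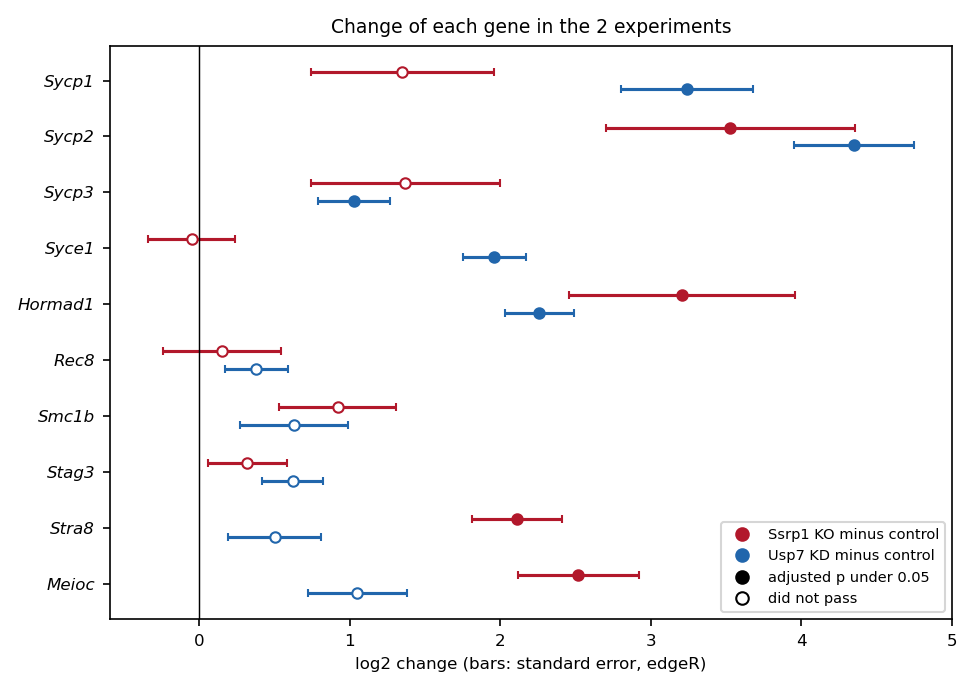
Log2 change of each of the 10 genes with its standard error, for Ssrp1 KO minus control and Usp7 knockdown minus control; filled points have an adjusted p under 0.05 in edgeR. The synaptonemal complex genes and Hormad1 are filled in the knockdown, and Stra8, Meioc, Sycp2 and Hormad1 in the knockout.

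Levels per length place the genes against each other within a group. In Usp7 knockdown cells, Stag3 had the highest level at 46.6 CPM per kb of exon, followed by Syce1 at 40.6, Hormad1 at 22.4, Sycp3 at 14.2, Meioc at 12.9 and Sycp1 at 9.94 CPM per kb. In Usp7 controls Stag3 also led at 30.3 CPM per kb, Syce1 had 10.4, and Sycp2 was last at 0.285 CPM per kb. In Ssrp1 KO cells the highest was Stra8 at 54.1 CPM per kb, with Syce1 and Stag3 next at 23.4 CPM per kb each, and Sycp2 was last at 0.415 CPM per kb. In Ssrp1 controls, Syce1 had 24.2, Stag3 18.7 and Stra8 12.5 CPM per kb. For comparison, the mitotic cohesin subunit Smc1a, the somatic paralogue of Smc1b, had 27.9 CPM per kb in Ssrp1 KO cells and 39.5 in their controls, and 31.4 in Usp7 knockdown cells and 32.0 in their controls. Smc1b had 3.85 CPM per kb in Ssrp1 KO cells and 2.04 in their controls, and 6.62 in Usp7 knockdown cells and 4.28 in their controls. Rad21, the mitotic kleisin, had 73.0 CPM per kb in Ssrp1 KO cells and 61.3 in controls, and 75.1 in Usp7 knockdown cells and 75.4 in controls, against 5.89 to 7.82 CPM per kb for Rec8 in the 4 groups.

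The 2 sets of controls, both E14 cells, differed in the levels of these genes, which were scaled within each experiment. The difference between the controls was not tested. Mean CPM of Sycp2 was 8.41 times as high in the Usp7 controls as in the Ssrp1 controls, of Meioc 3.17 times, of Hormad1 3.02 times and of Sycp1 2.88 times. Stra8 was 4.32 times as high in the Ssrp1 controls as in the Usp7 controls and Syce1 2.32 times. Sycp2, Meioc, Hormad1 and Sycp1 have under 40% GC, while Stra8 has 50.9% and Syce1 49.5%. Genes under 40% GC lay below the mean of their experiment in the Ssrp1 controls (medians -0.51 and -0.23). The part of GC content in these ratios was not tested. The Sycp2 ratio rests on 7 counts in the Ssrp1 controls and 58 in the Usp7 controls. Across all 4 groups, the Usp7 knockdown had the highest mean of 8 of the 10 genes, while Ssrp1 KO had the highest of Stra8 and Rec8. For Sycp1, Sycp2, Syce1 and Stag3 the knockdown libraries lay above all others, and for Stra8 the knockout libraries did. For Sycp3, Hormad1, Smc1b and Meioc, the top group overlapped the next, as it did for Rec8. The share of all genes with such an order was not computed, so these counts are a description of the 10 alone. The experiments were not run as 1, so levels set across them also hold any difference between the experiments.

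Other genes of meiosis were counted in lists of known function that exclude the 10. Of all tested genes, 2.36% rose in the Usp7 knockdown and 3.39% in the Ssrp1 knockout (edgeR). Of 12 further synaptonemal complex and axis genes, 11 were tested in the Usp7 knockdown, 7 rose and none fell, with a median log2 change of 1.99. Among them Tex12, a central element protein, had 3.17 ± 0.641 CPM in knockdown cells and 0.147 ± 0.207 CPM in controls (SD, n = 2 each), a rise of 4.37 (20.6-fold, adjusted p = 0.013, edgeR). Hormad2, the paralogue of Hormad1, had 23.7 ± 1.05 CPM in knockdown cells and 4.11 ± 1.09 CPM in controls (2.52, 5.75-fold, adjusted p = 0.00076, edgeR). Syce3, another central element protein, rose by 2.73 (6.62-fold, adjusted p = 0.033, edgeR). Rad21l, a meiotic kleisin, was counted 43 times in knockdown libraries and 1 time in controls, a ratio of 40.3 with a 95% counting interval of 6.86 to 1630. Of the 43 counts, 30 were in knockdown replicate 2, and without that library Rad21l did not pass the filter and was not tested. Without knockdown replicate 2 the calls of Tex12 (adjusted p = 0.22) and Syce3 (0.38) were lost, and without control replicate 1 those of Rad21l (0.084) and Syce3 (0.074), whereas Hormad2 kept its call in all 11 alternatives. Syce3 was also lost without knockdown replicate 1 (adjusted p = 0.11). Rad21l, Tex12 and Syce3 were further lost without the filter on low counts (adjusted p = 0.13, 0.093 and 0.11) and in the shared fit of all 8 libraries (0.14, 0.11 and 0.13). In the Ssrp1 knockout none of the 10 tested genes of this list was called by edgeR, 2 had an unadjusted p under 0.05 and DESeq2 called 1 higher, with a median change of 0.64.

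Genes of meiotic recombination rose in part. Of 22, 21 were tested in the Usp7 knockdown and 5 rose (median 0.38). These included Tex11, a crossover factor, with 30.3 ± 1.64 CPM in knockdown cells and 4.67 ± 1.69 CPM in controls (SD, n = 2 each), a rise of 2.70 (6.49-fold, adjusted p = 0.0007, edgeR). Rnf212, a crossover regulator, rose by 3.71 (13.1-fold, adjusted p = 0.0085), and Mei1, needed for the breaks that start recombination, by 2.94 (7.68-fold, adjusted p = 0.0096). Spata22, a partner of the strand exchange machinery, was counted 57 times in knockdown libraries and 3 times in controls, a ratio of 17.8 with a 95% counting interval of 5.8 to 89.0. Without knockdown replicate 2 the calls of Rnf212 (adjusted p = 0.24), Mei1 (0.27) and Spata22 (0.38) were lost, that of Spata22 also without control replicate 1 (0.057), and that of Tex11 was kept in all 11 alternatives. Without the filter on low counts Rnf212 (adjusted p = 0.07), Mei1 (0.087) and Spata22 (0.14) were lost as well, and so they were in the shared fit (0.055, 0.075 and 0.14). In the Ssrp1 knockout 19 of the 22 were tested and 2 rose (median 0.54). Of the 19, 8 had an unadjusted p under 0.05 in edgeR, and DESeq2 called 4 higher and 1 lower. Shoc1, a crossover protein, had 7.38 ± 3.28 CPM in knockout cells and 0.493 ± 0.137 CPM in controls (SD, n = 2 each), a rise of 3.89 (14.9-fold, adjusted p = 0.015, edgeR), and Rec114, a break formation factor, rose by 1.95 (3.86-fold, adjusted p = 0.031). With the GC and length correction these rises were 3.30 for Shoc1 and 2.04 for Rec114, both still called, and both calls were lost when either control library was left out (adjusted p up to 0.18). Of 6 genes that attach telomeres to the nuclear envelope in meiosis, Majin alone rose in the knockdown (1.70, 3.25-fold, adjusted p = 0.029, 6 tested; 0.68 without knockdown replicate 2, 0.14 without the filter and 0.22 in the shared fit), and none of 5 tested was called in the knockout by edgeR or DESeq2, with 2 at an unadjusted p under 0.05.

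Regulators of meiotic entry included genes with larger changes than Sycp2. Of 10 further genes of this kind, 9 were tested in the Usp7 knockdown and 3 rose (median 1.09). Meiosin, the partner of Stra8 in transcription, had 16.1 and 32.0 CPM in knockdown cells against 1.12 and 0.352 CPM in controls, a rise of 5.02 (32.4-fold, adjusted p = 0.0005, edgeR), while Stra8 itself did not pass. Rbm46, an RNA-binding protein of germ cells, rose by 4.87 (29.2-fold, adjusted p = 0.00053). Dazl, the germ cell RNA-binding protein needed for competence to enter meiosis, had 94.3 and 117.0 CPM in knockdown cells against 4.41 and 5.69 CPM in controls (4.39, 20.9-fold, adjusted p = 1.2e-05, edgeR). In the Ssrp1 knockout 7 of the 10 were tested and Dazl alone rose (list median 1.38), with 52.7 and 55.4 CPM in knockout cells against 6.03 and 6.73 CPM in controls (3.08, 8.46-fold, adjusted p = 0.0049, edgeR). With the GC and length correction this rise was 1.82 (adjusted p = 0.031). Of the 7 tested, 5 had an unadjusted p under 0.05 in edgeR, and DESeq2 called 1 higher. Dazl kept its call in all 11 alternatives in both experiments, as did Meiosin and Rbm46 in the knockdown.

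Mitotic cohesin and its regulators were counted as the other side of the cohesin family. All 13 were tested in both experiments. In the Usp7 knockdown none was called by edgeR or DESeq2 and none had an unadjusted p under 0.05. In the Ssrp1 knockout 2 rose (median 0.48): Esco2, an acetyltransferase that fixes cohesin on replicated DNA, with 145.8 ± 8.47 CPM in knockout cells and 33.3 ± 9.15 CPM in controls (2.13, adjusted p = 0.0077, edgeR), and its paralogue Esco1 (1.80, adjusted p = 0.033). Of the 13, 6 had an unadjusted p under 0.05 in edgeR, and DESeq2 called 4 higher and none lower. The edgeR calls of Esco2 and Esco1 ended with the GC and length correction, where Esco2 was at 0.88 (adjusted p = 0.16) and Esco1 at 0.78 (adjusted p = 0.24). Without control replicate 1 they also missed the threshold (adjusted p = 0.079 for Esco2 and 0.42 for Esco1), as Esco1 did without control replicate 2 (0.065). Of 21 repressors of germline genes in PRC1.6, histone H3 lysine methylation and DNA methylation, E2f6 alone was called in the knockdown, and it rose: 74.6 ± 7.02 CPM in knockdown cells and 33.0 ± 3.12 CPM in controls (SD, n = 2 each; 1.18, 2.26-fold, adjusted p = 0.01, edgeR; 0.38 without knockdown replicate 2 and 0.071 without the filter). None of the 21 was called in the knockout by edgeR or DESeq2, with 2 at an unadjusted p under 0.05.

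**Figure D5:**
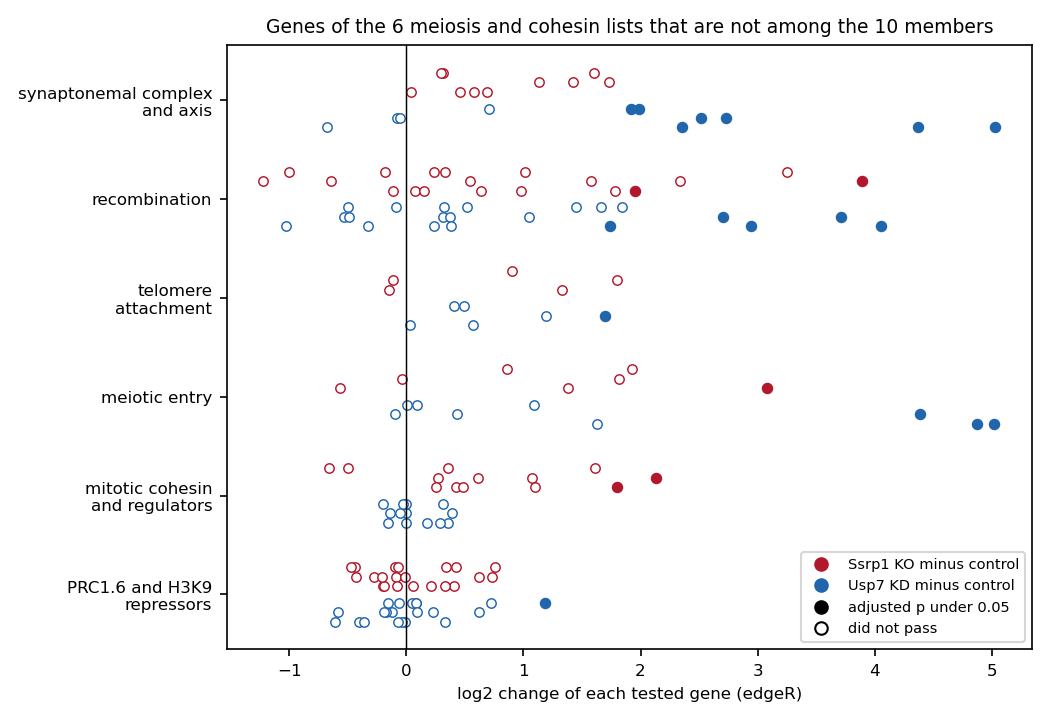
Log2 change (edgeR) of every tested gene of the 6 lists that exclude the 10 genes, in Ssrp1 KO cells (red) and Usp7 knockdown cells (blue), each relative to its controls; filled points have an adjusted p under 0.05. Filled blue points, 7 of 11, gather in the synaptonemal complex and axis list, and the mitotic cohesin list has filled points in the knockout alone.

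Markers of stem cells and of other cell states were summed in the same libraries, and not all of these lists moved. The 10 stem cell markers were detected in every library, with a summed level of 8055 to 8352 CPM in Ssrp1 KO cells against 8664 to 10770 CPM in controls, and 5451 to 5849 CPM in Usp7 knockdown cells against 6509 to 7722 CPM in controls. None of the 10 was called by edgeR or DESeq2 in either experiment, with 0 in the knockout and 3 in the knockdown at an unadjusted p under 0.05. Summed over 16 germ cell markers that are not meiosis genes, the level was 611.1 and 684.9 CPM in knockdown cells against 172.2 and 189.8 CPM in controls. Of the 14 tested, 7 rose by edgeR and 6 by DESeq2. In Ssrp1 KO cells the summed level was 208.7 and 337.6 CPM against 259.7 and 228.7 CPM in controls, so that the groups overlapped, and 1 of 13 rose. Nanos2, a male germ cell marker, was at 0 in all 8 libraries. Spermatid markers, expressed after meiosis, summed to 4 counts or fewer in every library. The 11 markers of the state that resembles the 2-cell embryo summed to 554.1 and 1514 CPM in Ssrp1 KO cells against 86.2 and 176.6 CPM in controls, and to 32.8 and 27.4 CPM in knockdown cells against 5.06 and 4.81 CPM in controls. Of these, 10 of 10 tested rose in the knockout and 6 of 7 in the knockdown by edgeR, while DESeq2 called 8 and 5 higher. Of all tested genes, 3.39% rose in the knockout and 2.36% in the knockdown (edgeR). Knockout replicate 2 held more of this signal, whereas Hormad1 and Sycp3 were higher in replicate 1. Primitive endoderm markers summed to 24.6 and 17.3 CPM in knockout cells against 2.75 and 5.20 CPM in controls, and to 9.85 and 11.7 CPM in knockdown cells against 6.35 and 8.09 CPM in controls. Markers of Sertoli or granulosa cells summed to 6.83 and 7.67 CPM in knockout cells against 4.46 and 4.64 CPM in controls, and to 11.7 and 13.7 CPM in knockdown cells against 11.0 and 6.51 CPM in controls. Fibroblast markers summed to 14.5 and 37.0 CPM in knockout cells against 18.0 and 19.2 CPM in controls, and to 9.13 and 13.2 CPM in knockdown cells against 14.8 and 17.2 CPM in controls. The part of any of these states in the levels of the 10 genes was not tested.

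Among the genes ranked, those whose profile over the 8 libraries was most like the mean of the 10 were Glis3, Tex11, Stk31, Dazl and Spata22. Each gene was centred within its experiment. Genes with no symbol, or with a symbol that begins with Gm or contains Rik, were left out of the ranking. Six6os1 and Meiosin, which the annotation lists under such symbols, were among those left out. Pearson's r was 0.991 for Glis3 and Tex11, 0.988 for Stk31, 0.98 for Dazl and 0.976 for Spata22, among 12983 genes with a median r of -0.007. The points are 8 libraries from 4 groups, so the genes compared share libraries and groups, and the values are a description. Stk31, a germ cell kinase-like gene, had a log2 change of 2.00 in the knockout (adjusted p = 0.026, edgeR) and 2.91 in the knockdown (adjusted p = 8.3e-05). Among the 10, r with their own mean was highest for Stag3 at 0.939 and lowest for Rec8 at 0.238.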

How the data were processed

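The data are RNA-seq libraries of E14 mouse embryonic stem cells in 4 groups of 2. The deposited values are raw counts per Ensembl gene, with a table for either experiment. Cutadapt, HISAT2, featureCounts and mm10 were used by the authors, per the submitters' processing notes. The sources used here do not give versions, annotation release, strand mode or how multiply mapped reads were handled, so overlapping genes and close copies may share reads. The spike-in entries held 0 counts and were left out. Symbols came from GENCODE vM21.

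Each experiment was fitted on its own 4 libraries with edgeR 4.0.16 (R 4.3.3): filterByExpr, TMM scaling, the quasi-likelihood F test, and Benjamini-Hochberg adjustment over all genes tested, with a call at an adjusted p under 0.05. The knockout change minus the knockdown change was a contrast in 1 fit of all 8 libraries. CPM uses TMM library sizes, and CPM per kb divides by the merged exon length. All 10 genes passed the filter in both experiments. The pipeline was tested on simulated counts.

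Alternatives were RLE scaling, DESeq2 1.42.0, no filter, an offset for GC content and exon length (smooth fit, mgcv 1.9.3), the replicate number as a block, the block with that offset, each library left out, and the joint fit. Where 1 library was left in a group, it was assumed to vary like the groups left whole. The 10 genes, the gene lists and the tests were chosen with earlier results of these data known. From each list, genes past the threshold were named, at most 4 per comparison by size of change; Smc1a, Rad21, Chpt1, Six6os1 and Ythdc2 were added after their values were seen. The promoter motifs were picked from 7 patterns after the sequences had been read. Profiles were compared on log2 CPM with a prior of 2 CPM, over genes tested in both experiments, without the 10 and without Gm, Rik or unnamed genes. Counting intervals cover counting error only.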

Additional observations from a re-analysis of the deposited data

Results flagged for a closer look

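Of the 10 genes, Syce1 was the one called in edgeR with all libraries and the filter on low counts as one whose change differed between the experiments by a test of the difference itself: the knockout change minus the knockdown change was -2.06 on the log2 scale (SE 0.33, adjusted p = 0.02, edgeR with Benjamini-Hochberg adjustment). Syce1 had 34.1 ± 0.0685 CPM in Ssrp1 KO cells and 35.3 ± 3.84 CPM in their controls, and 59.3 ± 2.02 CPM in Usp7 knockdown cells and 15.2 ± 2.45 CPM in their controls (SD, n = 2 each). Other fits of the same test also called Stra8 (DESeq2 adjusted p = 0.017, no filter 0.016), Meioc (no filter 0.029), Sycp1 (no filter 0.032) and Hormad1 (without knockout replicate 2, 0.02).

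Among the genes of the lists named, the same test gave 2.22 for Esco2 (adjusted p = 0.013, edgeR), which had 145.8 ± 8.47 CPM in Ssrp1 KO cells and 33.3 ± 9.15 CPM in their controls, and 95.6 ± 2.12 CPM in Usp7 knockdown cells and 105.3 ± 8.29 CPM in their controls (SD, n = 2 each). With the GC and length correction the difference was 1.28 (adjusted p = 0.13). For E2f6 it was -1.67 (SE 0.31, adjusted p = 0.031, edgeR). E2f6 had 21.6 ± 1.67 CPM in Ssrp1 KO cells and 29.4 ± 1.79 CPM in their controls, and 74.6 ± 7.02 CPM in Usp7 knockdown cells and 33.0 ± 3.12 CPM in their controls (SD, n = 2 each). The Esco2 and E2f6 calls, like that of Syce1, were lost in 5 or more of the 8 fits that leave out 1 library, among them each of the 4 fits without a Usp7 library, and the adjusted p reached 0.16 for Esco2, 0.27 for E2f6 and 0.17 for Syce1.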

How the results depend on the processing

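Of the 10 genes, the number called in the Ssrp1 knockout was 4, and 4 with RLE scaling, DESeq2, no filter, the replicate block or the joint fit; it was 2 with the GC and length correction, alone or with the block, and 0 to 5 with 1 library left out. In the Usp7 knockdown it was 5, and 5 with RLE scaling or the correction; it was 6 with DESeq2 (Meioc added), 3 without a filter, 8 with the replicate block, 8 with block and correction, 3 in the joint fit, and 3 to 8 with 1 library left out. For the difference it was 1, and 2 with DESeq2, 4 without a filter, 2 with the replicate block, 3 with block and correction, and 0 to 2 with 1 library left out. Of all genes, 585 were called in the knockout, 1109 with DESeq2, 1497 without a filter, 306 with the correction (230 higher, 76 lower), 988 with the block, 1123 with block and correction (617 higher, 506 lower), 1314 in the joint fit, and 20 to 1884 with 1 library left out. In the knockdown 476 were called, 100 without a filter, 745 with the correction (478 higher, 267 lower), 1471 with the block, 1767 with block and correction, 78 in the joint fit, and 42 to 3770 with 1 library left out. For the difference 171 were called, 672 with DESeq2, 945 without a filter, 525 with the block, 408 with block and correction, and 1 to 1109 with 1 library left out. The block pairs equal replicate numbers, which the labels do not say are pairs; deviations of equal numbers correlated at 0.178 and 0.163 in the 2 experiments, with 2 pairs each.

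Estimates changed sign in the knockout for Sycp1 (-0.15 with the correction, -0.18 with block and correction), Sycp3 (-0.57, -0.62), Smc1b (-0.08, -0.07), and with 1 library left out for Sycp3 (-0.05 to 2.06), Syce1 (-0.18 to 0.05) and Rec8 (-0.47 to 0.52). In the difference they did so with the correction, and with block and correction, for Sycp3 (-1.40, -1.44; -0.02 with the block), Hormad1 (-0.75, -0.98) and Smc1b (-0.63, -0.71), and with 1 library left out for Sycp2 (-1.93 to 0.66), Sycp3 (-1.08 to 0.95), Hormad1 (-1.13 to 1.69), Smc1b (-0.62 to 0.74) and Rec8 (-0.93 to 0.13). Of the values of changed sign none was called; within these ranges Sycp3 at 2.06 and Hormad1 at 1.69, both without knockout replicate 2, were called. The causes were not tested. Sycp2 and Syce1 kept their calls in the knockdown in 11 of 11 alternatives. With 2 libraries a group and controls of few reads (Sycp2 7 in the Ssrp1 controls), changes well beyond their standard error also went uncalled. Examples are Stag3 in the knockdown (0.62, SE 0.20, adjusted p = 0.14, edgeR) and Sycp1 in the knockout (1.35, SE 0.61, adjusted p = 0.27). A gene that was not called may therefore still have changed.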

Other observations

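Six6os1 and Ythdc2, which are outside the 10, were higher in knockout replicate 1, as were Hormad1 and Sycp3. They were chosen after their values were seen, and other genes of the lists did not all share this split. Tex11 was also higher in knockout replicate 1 (18.0 CPM, and 10.5 CPM in replicate 2). Shoc1 (5.06 and 9.70 CPM) and Mei1 (0.788 and 1.86 CPM) were higher in replicate 2. Six6os1, a central element protein, had 49.1 CPM in Ssrp1 KO replicate 1 and 10.2 CPM in replicate 2, against 9.57 and 8.26 CPM in controls, and did not pass the test (log2 change 1.73, adjusted p = 0.14, edgeR). In the Usp7 knockdown it had 56.5 and 82.6 CPM against 15.2 and 21.6 CPM in controls, and it rose by 1.92 (3.78-fold, adjusted p = 0.0026, edgeR). Ythdc2, the helicase that works with Meioc, had 26.9 CPM in Ssrp1 KO replicate 1 and 9.48 CPM in replicate 2, against 4.72 and 9.22 CPM in controls (1.38, adjusted p = 0.21, edgeR). In the Usp7 knockdown Ythdc2 had 17.4 and 19.1 CPM, between its controls at 14.4 and 21.9 CPM. Meioc, its partner, was also highest in replicate 1 of the knockout, whereas Rec8 and Stra8 were highest in replicate 2.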
